A study of Mus musculus with 8 samples.

Results

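The cytosolic ribosomal protein genes are the protein-coding genes whose products, together with ribosomal RNA, build the large and the small subunit of the cytosolic ribosome. They were taken from the deposited count table by name: protein-coding rows named Rpl or Rps with a number, plus Rplp0, Rplp1, Rplp2 and Rpsa, without the S6 kinases and without names of the pseudogene form. This gave 86 of 55450 rows, 52 with large and 34 with small subunit names, on 19 chromosomes. Among them Rpl7l1 and Rps19bp1, a binding partner of RPS19, match by name but are not structural ribosomal proteins. Of 102 matching names, 10 S6 kinases and 6 names ending in -ps and a number were left out. With those 6 kept, which end in -ps only before their number, there would be 92.

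The libraries were made from cells that were enriched on magnetic beads for c-Kit, a growth factor receptor of blood cell precursors, mast cells and melanocytes, out of subcutaneous B16F10 tumours. B16F10 is a pigmented mouse melanoma line. The 4 PERK_KO libraries, numbered 1 to 4, came from tumours of B16F10 cells with a knockout of PERK, and the 4 Scramble libraries, numbered 2 to 5, came from tumours of Scramble B16F10 cells. All hosts were wild-type C57BL6 mice injected at 6 weeks of age with 150000 cells, and tumours were taken on day 17. The knockout was in the injected cells and not in the mice, and whether either line was a single clone is not given in the sources used here. PERK is a stress kinase that phosphorylates eIF2 and so lowers protein synthesis when unfolded protein builds up. The comparison asked how the RNA of the enriched cells differs when the tumour cells lack PERK.

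Ribosomal proteins are made in near-equal numbers, since each ribosome holds a single copy of nearly all of them, and their messages are among the most abundant in dividing cells. Many of these messages begin with a run of pyrimidines, the 5′ terminal oligopyrimidine (TOP) tract, through which the TOR kinase pathway adjusts their translation more than their amount. Free ribosomal proteins such as RPL5 and RPL11 bind MDM2 and thereby stabilise p53, which links ribosome assembly to the cell cycle inhibitor p21, the product of Cdkn1a.

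Library totals were 29006949 to 47530393 counts in PERK_KO and 44950033 to 56697163 counts in Scramble. Eif2ak3, which encodes PERK, had a log2 change of -1.97 (SE 0.31; adjusted p = 0.00371 in edgeR) and was lower in each PERK_KO library than in each Scramble library. The labels call the cells infiltrating c-Kit precursors, but the 12 melanocyte markers together held 20840 to 25340 CPM in PERK_KO and 29520 to 30210 CPM in Scramble, where CPM are counts scaled for library depth with TMM factors. Counts of mitochondrially encoded genes made up 5.22, 19.2, 13.9 and 6.89% of the total in PERK_KO libraries 1 to 4, against 3.71 to 4.50% in Scramble. Libraries are taken here as separate tumours, which the sample titles do not state. Because the cells are mixed, fewer cells of a type and less RNA per cell cannot be told apart.

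Most ribosomal protein genes differed little between the groups, and those that passed the test were mainly higher in PERK_KO. Of the 86 members, 83 had enough counts to be tested. Rpl32, Rpl26, Rps27rt, Rpl41, Rps27, Rpl37, Rpl37a, Rps27l, Rpl30 and Rps23 rose, and Rpl18 and Rps15a fell (edgeR quasi-likelihood test, Benjamini-Hochberg adjusted p under 0.05 over all 16662 genes tested). The 10 members that rose were 12% of those tested, against 7.66% of all genes tested, and the 2 that fell were 2.41%, against 6.13% of all genes. In either direction 12 of the 83 members were called, a share near the 13.8% of all genes. Folds of the risers ran from 1.20 to 1.46, and no called member changed by 1.5-fold or more.

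The shift was small but spread over the family, and the medians of other short messages were above 0 too, as given below. The median log2 change of the 83 members was 0.14, against -0.02 over all genes tested, and 60 of the 83, or 72.3%, had a positive change, against 48.1% of all genes. With library totals alone the median was 0.060, against -0.091 over all genes tested, and 48 of the 83 were positive. The subunits had like values: the 49 large subunit genes had a median of 0.14 with 6 higher and 1 lower, and the 34 small subunit genes had a median of 0.14 with 4 higher and 1 lower. In 18 members, or 21.7%, the PERK_KO and Scramble libraries did not overlap, close to the 21.3% of all genes. PERK_KO was above in 15 of the 83, against 10.2% of all genes, and below in 3 of the 83, against 11.1% of all genes. The members were measured tightly, with a median SE of 0.10 on the log2 scale against 0.22 over all genes. At an unadjusted p under 0.05 there were 27 members higher and 6 lower, together 39.8% against 26.7% of all genes.

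**Figure D1:**
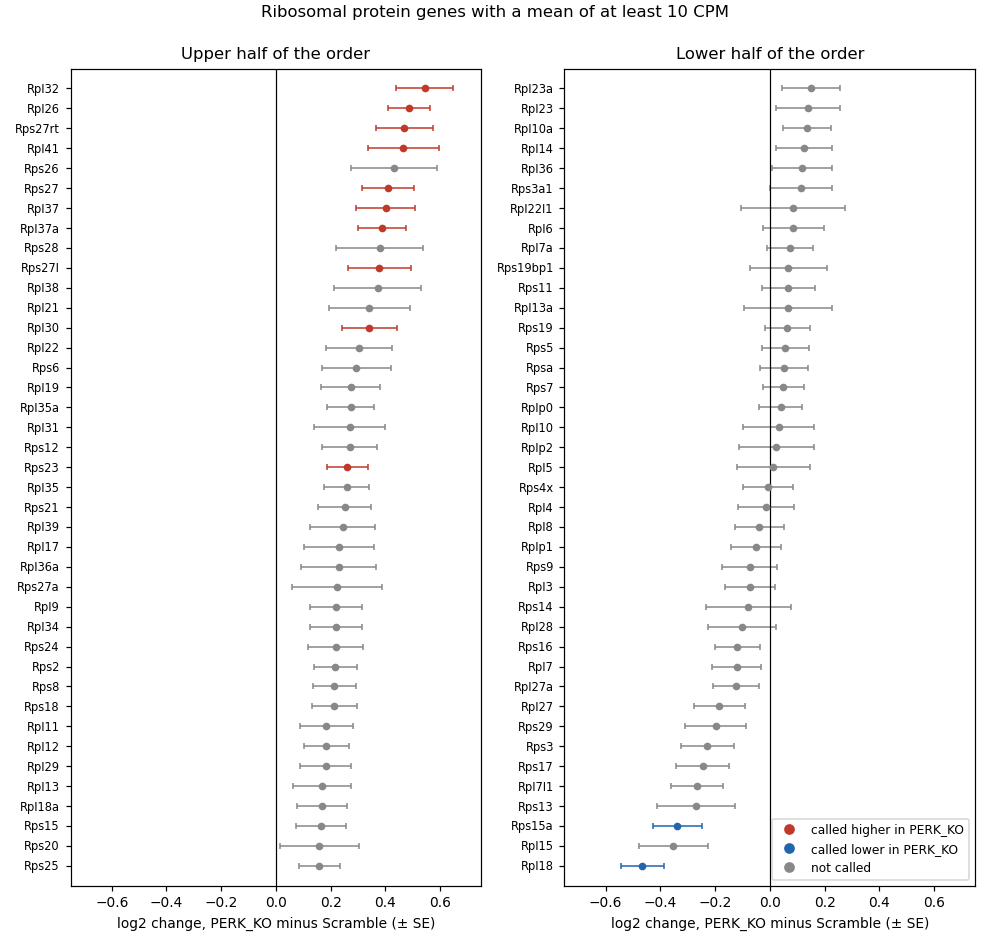
Log2 change of each ribosomal protein gene with a mean of at least 10 CPM, PERK_KO minus Scramble, with its SE as a horizontal bar (80 genes, n = 4 libraries per group). The left panel holds the upper part of the order, led by Rpl32 at 0.54, and the right panel the lower part, ending with Rpl18 at -0.47.

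The count of calls depended on the tool and on single libraries. DESeq2 called 26 members higher and 2 lower. Over all genes it called 1874 higher and 1096 lower, against 1277 and 1022 in edgeR. With upper-quartile factors 16 members rose and 1 fell, beside 1430 and 653 of all genes. With library totals alone 4 members rose and 2 fell, beside 1065 and 1169 of all genes. The number called was 12 with all libraries and 19 once PERK_KO 3 was left out. It was 3 when Scramble 3 was left out, 4 for Scramble 2 and 7 for Scramble 5. Calls over all genes moved too, with 1372 higher and 1244 lower without PERK_KO 3. They were 639 and 439 without Scramble 3, 791 and 492 without Scramble 2, and 771 and 590 without Scramble 5. Rpl32, Rpl26 and Rpl18 were called in each of the 8 fits with a library left out. Rps27rt, Rps27 and Rpl37a were called in 6 of these, Rpl41 and Rpl37 in 4, Rps23 and Rpl30 in 3, and Rps27l and Rps15a in 2. The highest adjusted p in these fits was 0.154 for Rps27l, 0.149 for Rps23, 0.133 for Rpl30 and 0.0836 for Rps15a.

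Rpl32 (ENSMUSG00000057841.5, mm10 chromosome 6, 115805505 to 115808747) encodes a protein of the large subunit. It had 871, 1033, 793 and 763 CPM in PERK_KO libraries 1 to 4, against 567, 556, 642 and 608 CPM in Scramble libraries 2 to 5. All PERK_KO libraries were above all Scramble libraries, with PERK_KO 2 the highest. The log2 change was 0.54 (SE 0.10, edgeR adjusted p = 0.00662), the largest rise among the members.

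Rpl26 (ENSMUSG00000060938.14, chromosome 11, 68901583 to 68906989), another large subunit gene, had 558, 578, 525 and 561 CPM in PERK_KO and 373, 383, 422 and 406 CPM in Scramble. The groups were well apart and each was tight, with 556 ± 22.1 CPM in PERK_KO and 396 ± 22.2 CPM in Scramble (SD, n = 4 each). The log2 change was 0.49 (SE 0.08, edgeR adjusted p = 0.00273), the smallest adjusted p among the members.

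Rpl37, Rpl37a and Rpl41 encode small, basic proteins of the large subunit, and Rpl41 is among the shortest proteins known. Rpl41 had 161, 220, 142 and 155 CPM in PERK_KO, against 118, 114, 123 and 136 CPM in Scramble. PERK_KO 2 stood highest and the groups did not overlap (log2 change 0.47, SE 0.13, edgeR adjusted p = 0.033). Rpl37 averaged 248 ± 34.3 CPM in PERK_KO and 188 ± 16.1 CPM in Scramble, and Rpl37a 152 ± 12.6 CPM in PERK_KO and 116 ± 6.31 CPM in Scramble (SD, n = 4 each). Their log2 changes of 0.40 and 0.39 passed the test (edgeR adjusted p = 0.0299 and 0.0139), and neither gene's groups overlapped.

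Rpl30 of the large subunit and Rps23, a protein of the decoding centre of the small subunit, passed with smaller changes. Rpl30 had 286, 347, 274 and 270 CPM in PERK_KO and 222, 226, 261 and 219 CPM in Scramble, so that its groups were separated by a narrow gap. Rps23 had 302, 291, 303 and 316 CPM in PERK_KO and 250, 237, 257 and 266 CPM in Scramble, the smallest change among the calls (log2 change 0.26, SE 0.07, edgeR adjusted p = 0.0366).

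Rps27 and its relatives rose together. Rps27 encodes a zinc finger protein of the small subunit, Rps27l its close paralogue, a known p53 target, and Rps27rt a retrogene copy of Rps27. Rps27 had 149, 158, 171 and 166 CPM in PERK_KO, against 124, 108, 139 and 114 CPM in Scramble. Rps27l had 157, 145, 156 and 133 CPM in PERK_KO, against 101, 104, 110 and 141 CPM in Scramble. Rps27 separated the groups, whereas for Rps27l the Scramble 5 library lay above PERK_KO 4. Rps27rt averaged 63.5 ± 5.30 CPM in PERK_KO and 45.9 ± 4.74 CPM in Scramble (SD, n = 4 each). The log2 changes were 0.41, 0.38 and 0.47 for Rps27, Rps27l and Rps27rt (edgeR adjusted p = 0.0162, 0.0466 and 0.0131). Of the 105-base stretches of the main transcript, 105 being the read length, 98.3% of those of Rps27 and 89.3% of those of Rps27rt also occur in another gene, each of these genes being among those that share them. Their separate values are therefore uncertain, while Rps27l and Rpl32 share no such stretch with another gene.

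Rpl18 of the large subunit (ENSMUSG00000059070.16, chromosome 7, 45715457 to 45720836) and Rps15a of the small subunit (ENSMUSG00000008683.16, chromosome 7, 118104372 to 118116188) were the members that fell. Rpl18 had 209, 196, 204 and 214 CPM in PERK_KO, against 288, 292, 298 and 258 CPM in Scramble. The groups were clearly apart (log2 change -0.47, SE 0.08, edgeR adjusted p = 0.00341). Rps15a had 113, 114, 138 and 132 CPM in PERK_KO, against 151, 151, 164 and 162 CPM in Scramble, again without overlap (log2 change -0.34, SE 0.09, edgeR adjusted p = 0.0275).

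**Figure D2:**
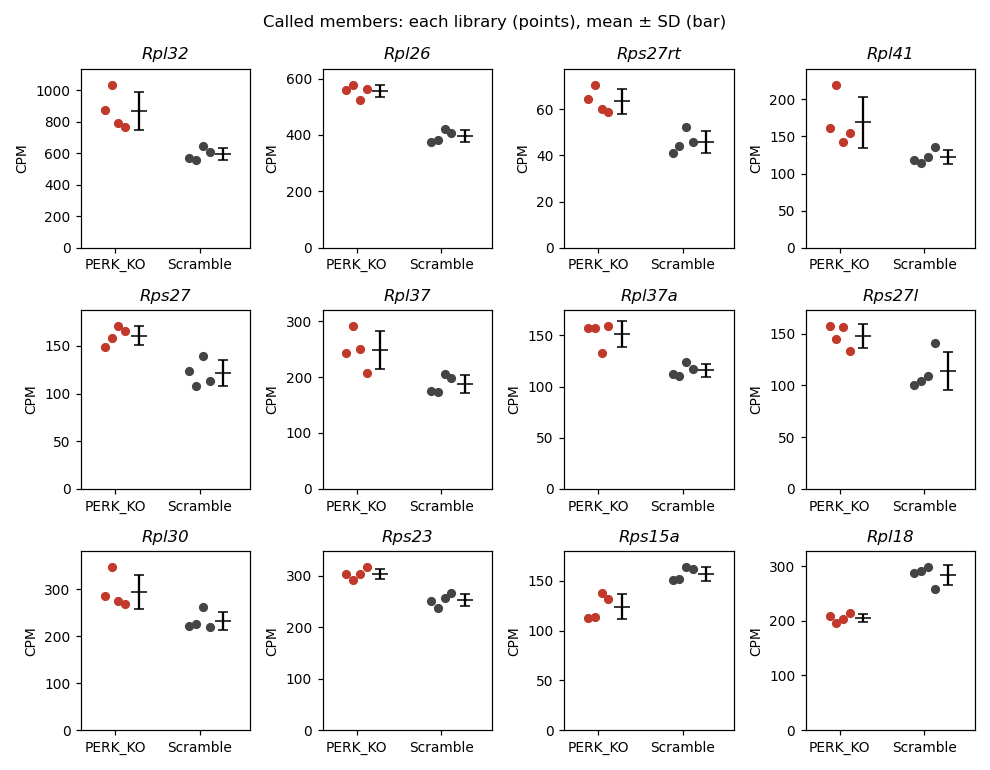
CPM of the 12 called members in each library (points), with the mean and SD of each group (bar, n = 4). PERK_KO lies above Scramble in the 10 panels from Rpl32 to Rps23 with the exception of 1 Scramble library in Rps27l, and below it in Rps15a and Rpl18.

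Members near the threshold formed no gap. Among calls, Rps27l had an adjusted p of 0.0466 and Rpl30 of 0.0430. Rpl35a and Rpl35 of the large subunit, at 0.0540 and 0.0572 (edgeR), lay just outside with log2 differences of 0.27 and 0.26. Rpl35a had 233, 261, 211 and 237 CPM in PERK_KO, against 188, 190, 195 and 207 CPM in Scramble, and its groups did not overlap. Rpl15 had 141, 102, 164 and 133 CPM in PERK_KO, against 180, 170, 178 and 160 CPM in Scramble (log2 difference -0.35, SE 0.13, edgeR adjusted p = 0.0881).

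The start of the called messages shows the TOP tract in part. A pyrimidine run was searched as a C followed by at least 4 bases that are C or T, starting within 5 bases of the RefSeq start site (GRCm38.p6) on the gene's strand. It was found in 30 of the 66 members that the promoter table holds, 45.5% against 21.2% of all 27025 genes of that table. Exactly at the start site the shares were 21.2% of members and 3.01% of all genes, and on the opposite strand within 5 bases they were 15.2% and 24.4%. By call, 4 of 8 risers, 2 of 2 fallers and 24 of 53 members not called held a run within 5 bases. Both fallers are shown with 6 risers, 15 bases before and 15 from the start site, 5′ to 3′ on the gene's strand, with the run in capitals. Rpl26 and Rpl41 show windows without one, and no match says only that these letters are not in this window. The risers Rpl37 and Rpl37a and a second start site of Rps27l, all without a run, are not shown.
Rpl18: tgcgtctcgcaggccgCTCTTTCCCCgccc
Rps15a: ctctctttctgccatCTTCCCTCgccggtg
Rps23: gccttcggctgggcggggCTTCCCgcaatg
Rps27: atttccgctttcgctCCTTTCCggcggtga
Rps27rt: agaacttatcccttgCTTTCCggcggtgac
Rps27l: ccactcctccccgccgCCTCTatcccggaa
Rpl26: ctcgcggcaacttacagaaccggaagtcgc
Rpl41: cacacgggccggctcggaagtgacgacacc
These lie at chr7:45718056-45718085 on the plus strand for Rpl18, chr7:118116133-118116162 on the minus strand for Rps15a, chr13:90923107-90923136 on the plus strand for Rps23, chr3:90213634-90213663 on the minus strand for Rps27, chr9:114982725-114982754 on the minus strand for Rps27rt and chr9:66946071-66946100 on the plus strand for Rps27l. Rpl26 is at chr11:68901551-68901580 on the plus strand and Rpl41 at chr10:128549154-128549183 on the minus strand.

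Change varied with the length of the main transcript, a single annotated form chosen for each gene. Its length was 5130 bases for Rps15a and 3706 bases for Rps20, and whether it is the form expressed in these cells was not tested. Over the 80 members with at least 10 CPM, the Spearman correlation between the log2 change and the length of the main transcript was -0.45, a description across genes of the same 8 libraries. The 10 risers had a median transcript of 535 bases, against 780 bases for the other tested members. The median log2 change was 0.27 for the 15 members under 500 bases, 0.17 for the 24 of 500 to under 750 bases, 0.09 for the 24 of 750 to under 1000 bases and 0.05 for the 12 of 1000 to under 1500 bases. Other protein-coding genes in the same length classes had medians of 0.18, 0.16, 0.05 and 0.01, so that the medians of short messages of other kinds were above 0 too. Other genes with a mean of at least 50 CPM, nearer in level to the members, had medians of 0.07, 0.11, 0.03 and 0.01. The part of length in the members' changes was not tested.

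**Figure D3:**
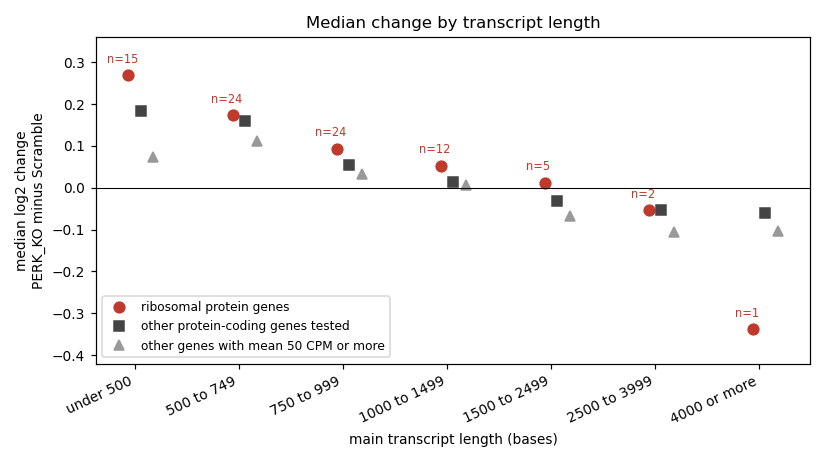
Median log2 change, PERK_KO minus Scramble, by length of the main transcript for ribosomal protein genes (circles, n beside each), other tested protein-coding genes (squares) and those with a mean of at least 50 CPM (triangles). In all 3 sets the medians step down from the second to the sixth length class, and the last circle is Rps15a alone.

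The share of all counts taken by the members differed by less than the spread between libraries. It was 3.45, 2.94, 2.97 and 3.42% in PERK_KO libraries 1 to 4, against 2.97, 2.91, 3.20 and 3.26% in Scramble libraries 2 to 5. The means were 3.19 ± 0.28% in PERK_KO and 3.08 ± 0.17% in Scramble (SD, n = 4 each). With mitochondrially encoded counts left out of the total, the shares were 3.64, 3.64, 3.45 and 3.67% in PERK_KO, against 3.10, 3.02, 3.35 and 3.41% in Scramble. On that basis every PERK_KO library was above every Scramble library. PERK_KO 2 and 3, with the largest mitochondrial shares, were the libraries whose value moved most, which follows from the changed denominator. Gm42418 and Gm26917, predicted genes with many counts, together held 1.94 to 3.73% of counts in PERK_KO and 2.23 to 4.02% in Scramble. The fit with the mitochondrially encoded rows and the rows Gm42418 and Gm26917 left out together, and the fit with PERK_KO 2 and 3 left out, both added after seeing the data, each called 12 members, of which 12 and 8 were among the 12 named above.

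The balance of the subunits was uneven within PERK_KO. The log2 ratio of large to small subunit counts was 1.02, 1.04, 0.84 and 0.86 in PERK_KO, against 0.88, 0.92, 0.90 and 0.93 in Scramble. PERK_KO libraries 1 and 2 were above all Scramble libraries and 3 and 4 below them. The means, 0.94 ± 0.11 in PERK_KO and 0.91 ± 0.02 in Scramble (SD, n = 4 each), were closer than the spread of PERK_KO. Members also scattered more within PERK_KO, with a median SD of 0.16 on the log2 scale against 0.11 in Scramble. The like SD over all genes is not given here, so this wider scatter is not shown to be particular to the members.

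The first principal component of the 80 members held 55.0% of their variance, with scores of 1.31, 2.31, 0.03 and 0.38 in PERK_KO and -1.49, -1.65, -0.59 and -0.30 in Scramble. PERK_KO 3 and 4 lay next to Scramble 4 and 5, and PERK_KO 2 lay farthest out. Rps26 of the small subunit and Rpl32 weighed most on the PERK_KO side. Rps26, which lines the channel where the message leaves the ribosome, had 687, 905, 520 and 574 CPM in PERK_KO and 484, 425, 547 and 535 CPM in Scramble. The PERK_KO values were widely spread and overlapped with Scramble (log2 difference 0.43, SE 0.16, edgeR adjusted p = 0.0929).

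Loss of 1 copy of a ribosomal protein gene causes Diamond-Blackfan anaemia in people, a failure of red cell precursors. The list used here holds 6 genes often affected, Rps19, Rpl5, Rpl11, Rps26, Rps24 and Rpl35a, and leaves out others tied to the disease, among them the called members Rpl26, Rps27, Rpl18 and Rps15a, so its count does not describe the disease genes as a whole. Of the 6, edgeR called 0, against 13.8% of all genes, with 2 at an unadjusted p under 0.05, against 26.7% of all genes, and DESeq2 called 2 and voom 1. Rpl5 and Rpl11 bind MDM2 with the 5S ribosomal RNA. Rpl5 had 852, 613, 621 and 875 CPM in PERK_KO, against 687, 671, 725 and 853 CPM in Scramble, fully overlapping (log2 difference 0.01, 95% interval -0.28 to 0.30). Rpl11 averaged 509 ± 29.2 CPM in PERK_KO and 448 ± 56.1 CPM in Scramble (SD, n = 4 each; log2 difference 0.18, 95% interval -0.03 to 0.40). Rps19 averaged 291 ± 24.8 CPM in PERK_KO and 278 ± 13.0 CPM in Scramble, and Rps24 741 ± 75.2 CPM in PERK_KO and 637 ± 65.7 CPM in Scramble. The log2 differences of Rps19 and Rps24 were 0.06 and 0.22.

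Levels per length spanned a wide range. On the scale of CPM per kb of all exons of a gene, the mean over libraries was highest for Rpl36 at 1491, followed by Rplp1 at 886, Rps3a1 at 792, Rpl32 at 757, Rpl29 at 736 and Rpl4 at 708, against a median of 169 over the members. Per kb of the main transcript the order differed: Rpl36 again had 1491, Rpl32 had 1410 and Rpl29 had 1166, but Rpl21, named after its values were seen, was highest at 1691. Rplp1 is a protein of the stalk that recruits translation factors. Rpl36 had 607, 694, 570 and 506 CPM in PERK_KO, against 521, 487, 612 and 572 CPM in Scramble. Apart from Rpl32, these abundant members had overlapping groups. Rpl4 averaged 1414 ± 192 CPM in PERK_KO and 1428 ± 62.9 CPM in Scramble (log2 difference -0.01, 95% interval -0.24 to 0.21).

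Among the tested members, the 4 with the fewest counts were Rpl24, Rps10, Rpl36al and Rpl13a, with 588, 701, 1037 and 6760 counts over all 8 libraries. Their main transcripts overlap another gene on the same strand over 71.5, 53.6, 63.1 and 59.3% of their length, more than any other member. The overlapping annotations Gm28037, RPS10-NUDT3 and Gm45713 had 0 counts and Gm49383 had 5. How reads in overlapped stretches were counted is not given in the sources used here, and the part of the overlap in these levels was not tested. Rpl24, with 0.10, 1.03, 2.00 and 0.68 CPM in PERK_KO and 1.18, 2.28, 1.89 and 2.83 CPM in Scramble, had the largest change in size of all members and did not pass (log2 difference -1.10, SE 0.76, edgeR adjusted p = 0.417).

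**Figure D4:**
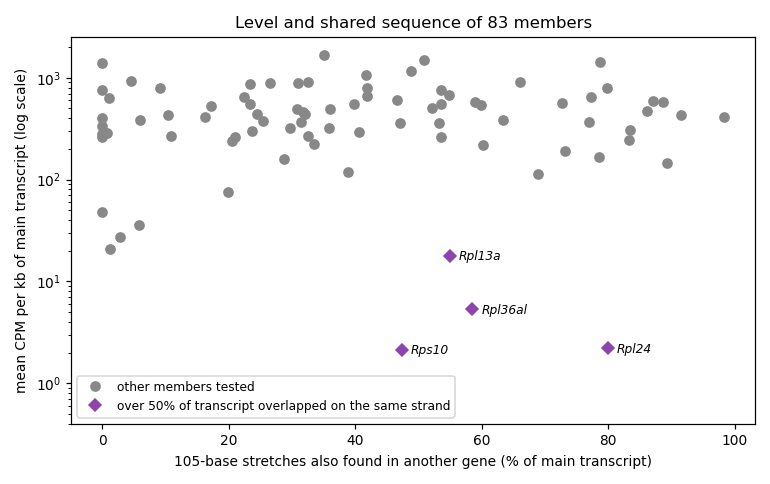
Mean CPM per kb of the main transcript (log axis) of the 83 tested members against the share of their 105-base stretches that also occur in another gene. The 4 diamonds, Rpl13a, Rpl36al, Rps10 and Rpl24, are members overlapped by another gene on the same strand over more than 50% of the transcript, and they lie below all circles.

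Most members have processed pseudogenes, and 76 of the 86 share at least 1 stretch of 105 bases with a gene elsewhere in the genome. The 289 rows named as ribosomal protein pseudogenes held 0.143, 0.146, 0.109 and 0.125% of counts in PERK_KO, against 0.0982 to 0.118% in Scramble, little beside the share of the members. With these rows summed into their parent genes, 13 members were called, including the 12 called without them. Genes that share stretches under other names, such as those starting with Gm, were not in this sum. Over all libraries Gm10076 held 26118 counts, against 51759 for Rpl41, and Gm9794 held 60419, against 244045 for Rpl23. For Rpl37a, Gm4149 and Gm4613 together held only 791, against 47343. The part of these genes in the members' changes was not tested.

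Paralogues of canonical ribosomal proteins ranged from absent to well counted. Rpl22l1, for one, averaged 68.2 CPM in PERK_KO and 64.3 CPM in Scramble. Rpl10l and Rpl39l, known from testis, had 0 counts in all libraries, and Rpl3l, known from heart and skeletal muscle, had 8 counts in PERK_KO 3, 3 in Scramble 2, 5 in Scramble 4 and 0 in the other libraries. Rps27l had a mean level of 160 CPM per kb of all exons and Rps27 of 135 CPM per kb, but per kb of the main transcript the values were 262 CPM for Rps27l and 409 CPM for Rps27, so the order of the levels depends on the length used. For 5 pairs with enough counts the log2 ratio of paralogue to canonical gene was compared between groups by exact permutation, two-sided, with 70 ways to assign the libraries and a smallest possible p of 0.0286.

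The ratio of Rpl7l1 to Rpl7 and that of Rpl36al to Rpl36a did not overlap between groups. Rpl7l1, a relative of Rpl7 known from ribosome assembly that is not a structural ribosomal protein, had a ratio of -3.14, -2.98, -2.97 and -3.14 in PERK_KO, against -2.93, -2.85, -2.92 and -2.96 in Scramble. The mean difference was -0.14 (exact permutation p = 0.0286, adjusted over the 5 pairs p = 0.0715). Rpl36al to Rpl36a differed by -0.66 (exact permutation p = 0.0286, adjusted p = 0.0715), but Rpl36al is among the overlapped low members. The ratio of Rpl22l1 to Rpl22, a pair in which RPL22 represses its paralogue in the mouse, was -2.51, -2.53, -1.85 and -3.37 in PERK_KO, against -2.36, -2.39, -2.32 and -2.21 in Scramble. PERK_KO 3 and 4 lay on opposite sides of Scramble (difference -0.25, exact permutation p = 0.571, adjusted p = 0.75). The ratios of Rps27l and Rps27rt to Rps27 differed by -0.02 and 0.06 (adjusted exact permutation p = 0.8 and 0.75).

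Fau, a ribosomal protein gene outside the naming rule, and Rack1, the gene of a ribosome scaffold protein, were not called. Fau, which encodes a ubiquitin-like protein fused to RPS30, had 104, 126, 147 and 161 CPM in PERK_KO, against 103, 100, 116 and 96.6 CPM in Scramble (log2 difference 0.37, SE 0.13, edgeR adjusted p = 0.0797). PERK_KO 1 lay among the Scramble libraries, the other PERK_KO libraries above them. Rack1 averaged 889 ± 79.6 CPM in PERK_KO and 857 ± 41.7 CPM in Scramble (SD, n = 4 each). Of these 2 genes edgeR called 0, against 13.8% of all genes, with 1 at an unadjusted p under 0.05, DESeq2 called 1 and voom 0.

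As a list, other TOP messages had a median near that of all genes, with single members on either side. Of 18 translation factors and further TOP mRNAs, edgeR called 0, against 13.8% of all genes. At an unadjusted p under 0.05 there were 2, or 11.1% against 26.7% of all genes, and DESeq2 and voom called 1 each. Without PERK_KO 3, 3 were called higher, and without PERK_KO 2, 1 was called lower. The median log2 change of the 18 was -0.03. Eef1a1, the elongation factor that brings aminoacyl-tRNA to the ribosome, averaged 6392 ± 565 CPM in PERK_KO and 6927 ± 119 CPM in Scramble, and Pabpc1, the poly(A)-binding protein, averaged 2562 ± 408 CPM in PERK_KO and 2357 ± 140 CPM in Scramble (SD, n = 4 each).

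Of 12 TOP regulators and TOR pathway genes, 1 fell, or 8.33% against 6.13% of all genes, and none rose. Eif4ebp2, a repressor of cap-dependent translation, had 334, 323, 320 and 309 CPM in PERK_KO, against 411, 436, 394 and 443 CPM in Scramble, with no overlap (log2 change -0.39, SE 0.07, edgeR adjusted p = 0.00687). Of 40 ribosome biogenesis genes, 3 fell, or 7.5% against 6.13% of all genes, and none rose: Ubtf, a transcription factor of ribosomal RNA genes, Bccip and Efl1, a GTPase that releases eIF6 from the large subunit. Ubtf averaged 114 ± 9.92 CPM in PERK_KO and 144 ± 7.33 CPM in Scramble (SD, n = 4 each; log2 change -0.33, edgeR adjusted p = 0.0263). The median of the 40 was 0.01, and all 9 at an unadjusted p under 0.05 were lower. The number that fell was 0 without Scramble 2 or Scramble 4, 1 without Scramble 3 or Scramble 5 and 6 without PERK_KO 1.

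Of 9 tested genes of ribosome surveillance and stalling, 2 rose, or 22.2% against 7.66% of all genes, and none fell. The median log2 change of the 9 was -0.03, and 4 of them had a positive change. Mdm2 (log2 difference 0.20) and Trp53, the gene of p53 (log2 difference -0.03), were not called. Cdkn1a had 218, 267, 180 and 246 CPM in PERK_KO, against 71.4, 64.3, 63.6 and 72.0 CPM in Scramble. Each PERK_KO library was far above Scramble (log2 change 1.75, SE 0.12, edgeR adjusted p = 2.39e-05). Zfp598, a sensor of collided ribosomes, averaged 75.1 ± 8.16 CPM in PERK_KO and 56.3 ± 3.94 CPM in Scramble (log2 change 0.42, edgeR adjusted p = 0.0195). Zfp598 was not called when any 1 of the Scramble libraries was left out. Of 77 mitochondrial ribosomal protein genes, 1 rose, or 1.3% against 7.66% of all genes, and none fell, against 6.13% of all genes. The riser was Mrpl13 (log2 change 0.34, edgeR adjusted p = 0.0336), and the median of the 77 was -0.04. Mrpl13 was called in 1 of the 8 fits with a library left out, the one without PERK_KO 3, in which 4 of these genes rose. Up to 2 of them fell in such fits, and DESeq2 called 4 and voom 2.

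**Figure D5:**
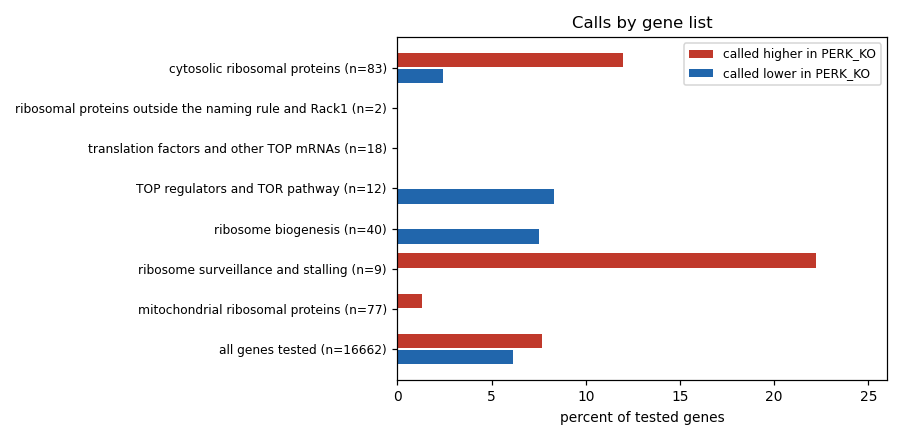
Percent of tested genes called higher and lower in PERK_KO for the ribosomal protein genes, 6 related lists and all genes tested (number tested in brackets). Ribosomal protein genes had 12% higher and 2.41% lower, against 7.66% and 6.13% of all genes.

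Markers of some cell types moved with the groups. Of all genes tested, edgeR called 7.66% higher and 6.13% lower, and 26.7% had an unadjusted p under 0.05. Of 10 pan-leukocyte markers 9 rose, with a summed level of 458 to 1061 CPM in PERK_KO and 298 to 341 CPM in Scramble, and of 10 epithelial markers 9 rose, with 92.9 to 243 CPM in PERK_KO and 3.31 to 5.98 CPM in Scramble. Of 8 blood progenitor and mast cell markers 6 rose, with 529 to 1877 CPM in PERK_KO and 188 to 316 CPM in Scramble, and of 12 melanocyte markers 7 fell. Endothelial markers had 71.9 to 267 CPM in PERK_KO and 37.6 to 196 CPM in Scramble. Of 8 endothelial markers edgeR, DESeq2 and voom called 0, with 0 at an unadjusted p under 0.05, and the same held for 4 tested erythroid markers, while 1 of 7 fibroblast markers rose. In no list was a marker at 0 in all libraries, and the part of these cells in the ribosomal protein changes was not tested.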

How the data were processed

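RNA sequencing of 8 libraries was used, 4 PERK_KO and 4 Scramble. Per the labels' protocols, libraries were strand-specific, from 100 ng of RNA, with paired reads of 105 bases. The submitters' processing notes name mm10, STAR 2.5.3a, HTSeq 0.6.1 and DESeq2 1.30.1 but no settings. The deposited raw table holds counts per gene. The deposited normalized signal, which equals those counts over a single factor for each library, served only as a check. Members and lists were chosen with earlier results of these data known, and 1 gene of the related lists is not reported here.

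All 55450 IDs matched GENCODE M21. Genes passed filterByExpr by group (16662), were scaled by TMM and tested with edgeR 4.0.16 (robust quasi-likelihood, ~ group, R 4.3.3). SE is the log2 change divided by the square root of F, and log2 CPM used a prior count of 2. Alternatives used DESeq2 1.42.0, limma 3.58.1 (voom), other scalings, filters, a 1.5-fold minimum, a replicate block, pseudogene rows summed, and each library left out. Named genes were paralogues, calls, the most abundant, those nearest the threshold, Diamond-Blackfan genes and leading related genes. Of these the text writes out the ones that carry a comparison. Plots used Python 3.11.15 and matplotlib 3.10.9. P-values measure the spread between libraries, and whether each mouse bore 1 tumour is not given in the sources used here. Loss of PERK and any other difference between the injected PERK_KO and Scramble cells cannot be told apart.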

Additional observations from a re-analysis of the deposited data

Results flagged for a closer look

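In groups of 4, a library was marked when its gap to the nearest other library took up most of the group's range, and 5 of 106 groups met this, about the 1 in 20 that chance gives. Rpl7l1 in Scramble 5 had 56.2 CPM, against 60.6 to 61.4 CPM in the other Scramble libraries. Rpl7 in PERK_KO 4 had 485.6 CPM, against 385 to 395 CPM in the other PERK_KO libraries. Rplp1 in PERK_KO 4 had 502 CPM, against 406 to 418 CPM in the others. Rpl39 in PERK_KO 2 had 234 CPM, against 171 to 181 CPM in the others. Rpl37a, which is called, had 133 CPM in PERK_KO 3, against 157 to 159 CPM in the others. The cause was not tested for any of them.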

How the results depend on the processing

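The 12 calls (10 higher, 2 lower) became 6 (4 and 2) with library totals alone, 28 (26 and 2) with DESeq2, and 0 with a minimum of 1.5-fold. RLE factors gave 1 lower call, and upper-quartile factors 16 higher and 1 lower. With upper-quartile factors 68.7% of all calls were higher, against 55.5% with TMM. With 1 library left out, calls ran from 3 to 19, higher calls from 2 to 16 and lower calls from 1 to 5. The replicate block (numbers 2, 3 and 4) gave 0 calls among members and 1 among related lists, with 127 higher and 81 lower over all genes. Same-numbered libraries deviated with correlations of -0.0091, 0.0982 and -0.204, and 1 of 3 PERK_KO libraries correlated best with its own number. With only 3 such pairs these values cannot tell whether libraries of the same number share a day or a batch. What the numbers mean is not given in the sources used here. The 7 calls in related lists became 13 with DESeq2, 1 at 1.5-fold, 11 without PERK_KO 2 and 3 together, and 2 to 14 with 1 library left out. The median log2 change of the members stayed positive, with 0.0596 for library totals as the lowest value. Over the settings it lay 0.1167 to 0.2419 above the median of all genes tested. The difference in the members' share of counts, 0.11 percentage points, was 0.38 without mitochondrially encoded counts.

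Differences near 0 changed sign. With library totals Rpl10 was at -0.0246, Rps19bp1 at -0.0041, Rps19 at -0.0086, Rpl5 at -0.0465 and Rack1 at -0.0157. Rps4x was at 0.0366 with RLE factors and DESeq2, 0.049 with upper-quartile factors, 0.0251 with the stricter filter and 0.0029 with pseudogenes summed. Rpl4 was at 0.0262 with RLE factors and DESeq2, 0.0394 with upper-quartile factors and 0.0154 with the stricter filter. Rplp1 was at 0.004 with upper-quartile factors and Rpl10 at -0.003 with voom, and under the replicate block Rps19bp1 was at -0.0019 and Rpl5 at -0.0017. With 1 library left out, or PERK_KO 2 and 3 together, differences ranged from -0.2058 to 0.2675 for Rpl22l1, -0.1031 to 0.1893 for Rpl10, -0.0846 to 0.112 for Rps4x, -0.0462 to 0.1485 for Rps19bp1, -0.1315 to 0.023 for Rplp1, -0.0716 to 0.1075 for Rpl4, -0.0157 to 0.0987 for Rps19, -0.0813 to 0.235 for Rpl5, -0.0031 to 0.142 for Rack1. With 1 library left out, paralogue log2 ratios ranged from -0.4869 to 0.0208 for Rpl22l1 to Rpl22, -0.107 to 0.1104 for Rps27l to Rps27, -0.0062 to 0.1133 for Rps27rt to Rps27. The cause was not tested, and none of these differences had passed the test.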
